A study of Oryza sativa with 4 samples.

Results

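Polysomal levels of 10 rice loci that make or break down compatible solutes are described here in the salt-tolerant genotype Pok and the salt-sensitive genotype IR29. The loci were chosen by their identifiers, for the roles given below, with earlier results of these data known. They were 3 loci grouped under proline synthesis, 1 under proline breakdown, 2 betaine aldehyde dehydrogenases, 3 loci grouped under trehalose synthesis and 1 inositol-3-phosphate synthase. Together they held 29 of the 89715 assembled transcripts and 10 of the 57164 gene loci in the translatome data, and 9 of the 10 had a transcript that matched the annotation. Whole seedlings of each genotype, 24 days old and grown on Yoshida medium, were left on that medium as a control or given 150 mM NaCl in it for 24 h. Polyadenylated RNA was then taken from the pooled gradient fractions that carried more than 2 ribosomes per mRNA. This gave 4 libraries (Pok salt, Pok control, IR29 salt and IR29 control), 1 per condition, each taken to be a pool of equal RNA from 3 biological replicates, a pooling that the methods state under the isolation of total RNA. With this design the effect of a genotype or treatment and that of its library cannot be told apart. No value below has a replicate spread, an interval or a p-value.

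Compatible solutes are small, highly soluble molecules that plant cells can gather under salt or drought without disturbing their enzymes, and they help to balance the osmotic pressure of ions held in the vacuole. Proline is made from glutamate by pyrroline-5-carboxylate synthetase, an enzyme with an amino acid kinase domain, and then by pyrroline-5-carboxylate reductase, and it is degraded in mitochondria by proline oxidase. Glycine betaine is made from choline by choline monooxygenase and betaine aldehyde dehydrogenase, and rice is known for gathering little of it. Trehalose is made through trehalose 6-phosphate, itself a signal of sugar status, by a synthase and a phosphatase, and inositol-3-phosphate synthase makes the first product on the way to inositol and the raffinose family sugars.

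The measure throughout is FPKM, fragments scaled to transcript length and to the mapped reads of the library, which allows levels of different genes to be set side by side. A transcript was said to have risen or fallen when its FPKM differed at least 2-fold between both libraries of a comparison and reached 5 FPKM in one of them, which are the size limits of the study without its FDR. It was considered where that level was reached and neither value was listed at 0. Log2 ratios are of FPKM plus 1, which understates the change of weakly expressed genes. Each locus is represented by its leading transcript, the annotated one with the highest mean FPKM over the 4 libraries. The 4 comparisons share libraries (each library stands in 2 of them), so they are not independent of each other. The libraries held 8979 to 10595 annotated transcripts at 5 FPKM or more. The 5 largest values made up 41.4% to 65.1% of the summed FPKM of a library. In the 7424 annotated transcripts that reached 5 FPKM in every library, salt over control had a median log2 ratio of 0.06 in Pok and 0.26 in IR29, and Pok over IR29 had one of 0.33 in the controls and 0.12 in the salt libraries. Ratios near these shifts are near the typical transcript.

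Markers of leaf and root also differed between the whole-seedling libraries. Over the 18 leaf genes (chlorophyll a-b binding proteins and Rubisco small chains), the summed level was 3712 FPKM in Pok salt, 6098 in Pok control, 1179.9 in IR29 salt and 4854 in IR29 control. Of these leaf genes, 2 of the 16 considered fell after salt in Pok and 12 of the 15 considered in IR29, beside 4.81% and 5.67% of all annotated transcripts considered. One leaf gene, Os07g38960, was listed at 0 in all 4 libraries, and Os08g33820 was listed at 0 in both IR29 libraries against 693 FPKM in Pok salt and 769 in Pok control. The 10 root genes, among them silicon transporters, aquaporins, ammonium transporters and nicotianamine synthases, summed to 271 FPKM in Pok salt, 89.1 in Pok control, 56.2 in IR29 salt and 189 in IR29 control, with none at 0. The paper lists the nicotianamine synthases Os03g19420 and Os03g19427 and the ammonium transporter Os02g40730 among genes that salt regulated oppositely in the genotypes. The root list is therefore not free of salt response. After salt 5 of the 7 root genes considered rose in Pok (15.1% of all transcripts considered), and 6 of the 7 considered fell in IR29 (5.67% of all). The part of these shifts in any result below was not tested, and fewer cells of a type cannot be told apart from less RNA per cell.

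After salt 1 of the loci rose past the size limits in IR29, the amino acid kinase Os05g38150, and none fell there. In Pok no leading annotated transcript rose or fell. Among all annotated transcripts considered, 15.1% rose and 4.81% fell after salt in Pok, and 18.9% rose and 5.67% fell in IR29. Only 4 of the 9 annotated loci were considered in Pok and 5 in IR29, so counts of 0 and 1 do not set the loci apart from other transcripts. For the annotated loci the median log2 ratio was 0.03 in Pok (8 loci, range −0.69 to 1.14) and 0.48 in IR29 (9 loci, range −0.03 to 1.15). Over all considered transcripts, a set held to 5 FPKM unlike these loci, the medians were 0.10 in Pok and 0.31 in IR29. The medians of the loci and of all transcripts are therefore not of like sets. In Pok the loci considered had log2 ratios of 0.81 (Os05g38150), −0.13 (Os01g71990), 0.84 (Os04g39020) and 0.08 (Os08g32870). In IR29 these loci had 1.15, −0.03, 0.53 and 0.19 in the same order, and Os03g09250 had 0.57.

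**Figure D1:**
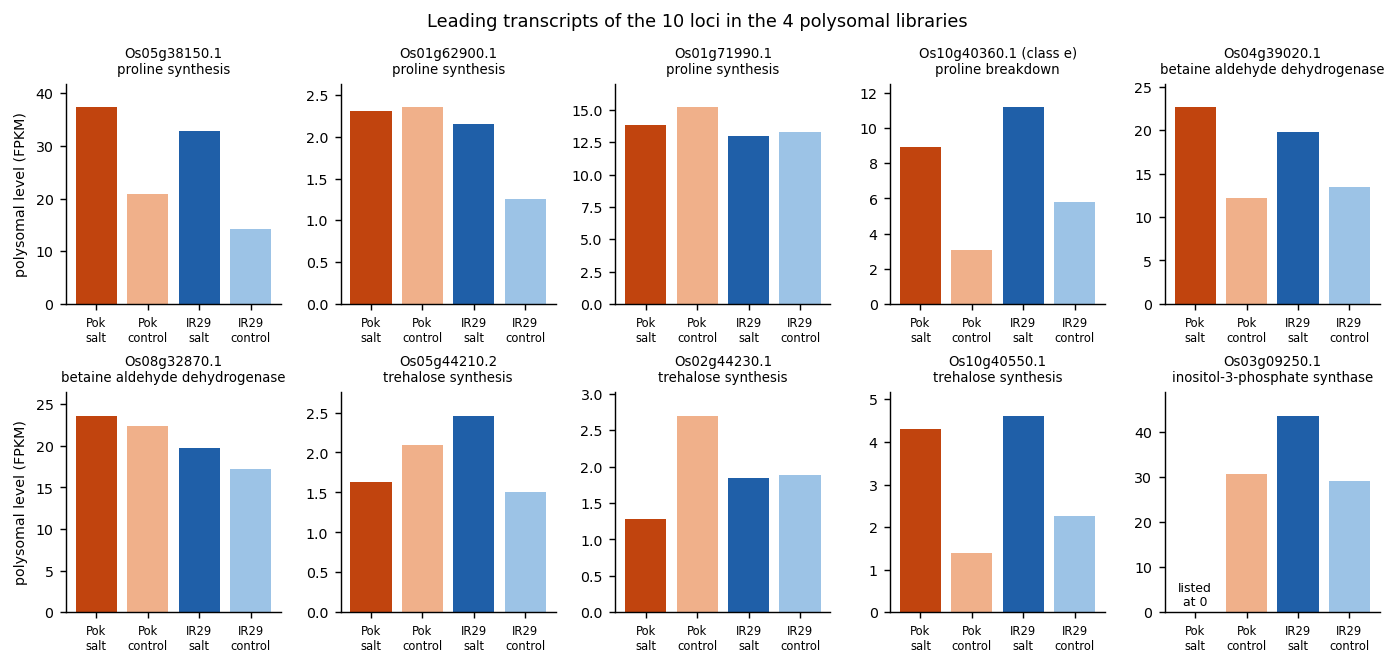
Leading transcript of each of the 10 loci, as bars of polysomal level (FPKM, linear axes that start at 0 and differ between panels) in Pok salt, Pok control, IR29 salt and IR29 control, 1 library each. Os05g38150 reached 37.3 and 32.9 FPKM in the salt libraries of Pok and IR29, Os01g71990 stayed between 13.0 and 15.2 FPKM, and Os03g09250 was listed at 0 in Pok salt.

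Among the proline loci, Os05g38150 was the one whose annotated transcript rose. This amino acid kinase lies within the assembled locus chr5:22291410-22318511 (MSU v6.1). Its leading transcript Os05g38150.1 had 37.3 FPKM in Pok salt, 20.8 in Pok control, 32.9 in IR29 salt and 14.2 in IR29 control, with both salt libraries above both controls. It rose 2.31-fold in IR29 (log2 ratio 1.15), and 14.4% of the annotated transcripts considered there had a ratio of FPKM as high or higher. In Pok the ratio was 1.80 (log2 0.81), short of the 2-fold limit and matched or passed by 18.0% of transcripts. After the FPKM were scaled so that the median ratio was 1, the log2 ratio in IR29 was 0.90, and with upper-quartile scaling it was 0.86, both no longer past the limit. Pok exceeded IR29 1.46-fold in the controls and 1.14-fold after salt.

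The other assembled transcripts of Os05g38150 were weaker. The leading transcript held 70.4% to 76.0% of the locus in each library, and the sum of all 5 transcripts was 49.7 FPKM in Pok salt, 27.8 in Pok control, 43.2 in IR29 salt and 20.2 in IR29 control. One splice variant (an assembled transcript that shares a junction with the annotated one) had 5.87 FPKM in Pok salt, 2.83 in Pok control, 5.42 in IR29 salt and 3.61 in IR29 control, and rose 2.08-fold in Pok. A further splice variant went the other way in Pok at a low level, with 1.83 FPKM in Pok salt, 3.22 in Pok control, 2.35 in IR29 salt and 2.02 in IR29 control. The third had 3.61 FPKM in Pok salt, 0.945 in Pok control, 1.76 in IR29 salt and 0.342 in IR29 control. The second annotated transcript of the locus was listed above 0 in the salt libraries alone, at 1.08 FPKM in Pok and 0.840 in IR29, and was listed at 0 in both controls. The assembled locus also covers the homeodomain gene Os05g38120, whose transcript had 6.49 FPKM in Pok salt, 7.57 in Pok control, 6.19 in IR29 salt and 6.86 in IR29 control. This neighbour thus did not share the salt difference of the kinase.

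Os01g62900, the second amino acid kinase (within chr1:36429891-36448908), was far weaker. Its leading transcript had 2.31 FPKM in Pok salt, 2.35 in Pok control, 2.15 in IR29 salt and 1.26 in IR29 control, below the 5 FPKM limit in every library. IR29 control stood apart as the lowest, and the other 3 libraries lay close together. Salt over control gave a log2 ratio of −0.02 in Pok and 0.48 in IR29. Most of the signal of this locus came from a splice variant with 6.55 FPKM in Pok salt, 2.44 in Pok control, 5.23 in IR29 salt and 2.73 in IR29 control, which rose 2.68-fold in Pok and had a ratio of 1.91 in IR29. Summed over both transcripts the locus had 8.86 FPKM in Pok salt, 4.79 in Pok control, 7.38 in IR29 salt and 3.99 in IR29 control, a ratio of 1.85 in each genotype. The direction of the Pok ratio therefore depends on whether the splice variant is counted.

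Os01g71990, pyrroline-5-carboxylate reductase, which completes proline synthesis, was the steadiest of the 9 loci with no value at 0. It had 13.8 FPKM in Pok salt, 15.2 in Pok control, 13.0 in IR29 salt and 13.3 in IR29 control, from a single assembled transcript (within chr1:41714835-41720531). Its highest library exceeded the lowest 1.17-fold. The ratio of salt over control was 0.911 in Pok and 0.979 in IR29.

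Os10g40360, annotated as a mitochondrial proline oxidase precursor (within chr10:21547428-21548686), was seen only as 1 assembled fragment. Its class, a single exon that overlaps both an exon and an intron, is the one that the comparison tool gives to possible pre-mRNA, so its values are given apart from the counts of annotated loci. The fragment had 8.92 FPKM in Pok salt, 3.05 in Pok control, 11.2 in IR29 salt and 5.80 in IR29 control. Both salt libraries lay above both controls. It rose 2.92-fold in Pok (log2 1.29) and had a ratio of 1.93 in IR29 (log2 0.84). Pok stood below IR29 in both conditions, with a ratio of 0.526 in the controls and 0.797 after salt. The breakdown locus and the leading kinase of synthesis thus both had their highest levels in the salt libraries.

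Both betaine aldehyde dehydrogenase loci, annotated simply as aldehyde dehydrogenases, were expressed in the same range, at 12.2 to 23.6 FPKM. Os04g39020 (within chr4:22984364-22991319) had 22.6 FPKM in Pok salt, 12.2 in Pok control, 19.8 in IR29 salt and 13.4 in IR29 control. Its salt libraries were higher in both genotypes, with a ratio of 1.86 in Pok (log2 0.84) and 1.47 in IR29 (log2 0.53), short of the limit. Os08g32870 (within chr8:20377075-20397985) had 23.6 FPKM in Pok salt, 22.3 in Pok control, 19.7 in IR29 salt and 17.2 in IR29 control. Here the ratios were 1.06 in Pok and 1.14 in IR29, and the order of the libraries followed genotype rather than salt. A splice variant of Os08g32870 had 17.1 FPKM in Pok salt, 12.7 in Pok control, 14.2 in IR29 salt and 15.8 in IR29 control, so that the highest and lowest of its values were both in Pok.

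A transcript assembled on the opposite strand of Os04g39020 was several times more abundant than the annotated one. It had 152 FPKM in Pok salt, 69.3 in Pok control, 161 in IR29 salt and 97.1 in IR29 control. Relative to the annotated transcript it was 6.70 times as high in Pok salt, 5.68 times in Pok control, 8.13 times in IR29 salt and 7.23 times in IR29 control, so the ratio varied less among libraries than either level. Of the 888 opposite-strand transcripts whose gene averaged at least 5 FPKM, 14 reached the ratio of this one (7.04, its mean level over the mean level of the annotated transcript), and the median ratio was 0.463. The opposite-strand transcript rose 2.19-fold in Pok and had a ratio of 1.66 in IR29. The library protocol is not stated to keep strand, and without strand reads of a gene and of an overlapping partner cannot be told apart, so both levels at this locus are uncertain.

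The 3 loci under trehalose synthesis were weak and did not share a direction. Os05g44210, trehalose-6-phosphate synthase (within chr5:25651023-25659571), had 1.63 FPKM in Pok salt, 2.10 in Pok control, 2.46 in IR29 salt and 1.51 in IR29 control. Salt was thus below control in Pok (log2 −0.23) and above it in IR29 (log2 0.46), at levels too low for the size limits. Its main splice variant had 2.09 FPKM in Pok salt, 3.92 in Pok control, 2.14 in IR29 salt and 3.45 in IR29 control, with both salt libraries below both controls. Summed over its 3 transcripts the locus had 4.08 FPKM in Pok salt, 6.26 in Pok control, 4.60 in IR29 salt and 5.19 in IR29 control, and the ratio was 0.652 in Pok and 0.885 in IR29. The IR29 direction of the annotated transcript was therefore not that of the whole locus.

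Os02g44230 and Os10g40550 are annotated only as transcripts that hold a conserved upstream open reading frame (CPuORF22 and CPuORF23), a short frame ahead of the main one that encodes a conserved peptide. Os02g44230 (within chr2:26761355-26765764) had 1.28 FPKM in Pok salt, 2.70 in Pok control, 1.84 in IR29 salt and 1.89 in IR29 control. Pok control was the highest and Pok salt the lowest, a ratio of 0.476, while the IR29 libraries nearly matched (0.975). A splice variant had 0.542 FPKM in Pok salt, 2.08 in Pok control and 1.18 in IR29 control and was listed at 0 in IR29 salt. The sum of its 6 transcripts, the others at 1.33 FPKM or less in every library, was 2.88 FPKM in Pok salt, 6.53 in Pok control, 5.17 in IR29 salt and 4.77 in IR29 control. On that sum the locus fell in Pok, with a ratio of 0.441. Of all loci summed in this way and considered, 13.5% rose and 3.94% fell after salt in Pok, and 18.1% rose and 5.11% fell in IR29.

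Os10g40550 (within chr10:21629199-21639476) ran the other way. Its leading transcript had 4.30 FPKM in Pok salt, 1.40 in Pok control, 4.61 in IR29 salt and 2.25 in IR29 control, with ratios of 3.07 in Pok (log2 1.14) and 2.05 in IR29 (log2 0.79) but no library at 5 FPKM. Its splice variant had 6.54 FPKM in Pok salt, 2.77 in Pok control, 7.14 in IR29 salt and 3.33 in IR29 control, and rose 2.36-fold in Pok and 2.15-fold in IR29. Summed over its transcripts the locus had 10.8 FPKM in Pok salt, 4.17 in Pok control, 11.8 in IR29 salt and 5.58 in IR29 control. That sum passed both limits in each genotype, with ratios of 2.60 in Pok and 2.11 in IR29. The neighbouring Os10g40540 in the same assembled locus stayed between 10.5 and 12.1 FPKM.

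Os03g09250, the inositol-3-phosphate synthase (within chr3:4806925-4828749), was the most abundant of the 10 loci in 3 libraries and was listed at 0 in the remaining one. Its leading transcript had 0 FPKM as listed in Pok salt, 30.6 in Pok control, 43.6 in IR29 salt and 29.1 in IR29 control. All 14 transcripts that share its assembled locus, from 3 genes, were listed at 0 in Pok salt, although 11 of them were above 0 in another library. The neighbours Os03g09220 and Os03g09230 were among them, with 14.9 and 6.32 FPKM in Pok control. Among 6453 assembled loci whose annotated transcripts reached 5 FPKM in each of the other 3 libraries, 12 (0.186%) stood wholly at 0 in Pok salt, against 16 of 6626 in Pok control, 2 of 6599 in IR29 salt and 5 of 6809 in IR29 control. A whole locus at 0 can be a failed estimate, so no fold was computed for Pok salt and its level there is unknown.

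In IR29 the leading transcript of Os03g09250 had a salt to control ratio of 1.50 (log2 0.57). Between the controls the Pok to IR29 ratio was 1.05. A second annotated transcript had 8.00 FPKM in Pok control, 10.5 in IR29 salt and 1.35 in IR29 control, and it rose 7.83-fold with salt in IR29. The 2 splice variants had 28.5 and 7.18 FPKM in Pok control, 28.1 and 5.01 in IR29 salt, and 19.1 and 1.07 in IR29 control. All 4 transcripts of the gene were listed at 0 in Pok salt. Their sum was 74.2 FPKM in Pok control, 87.2 in IR29 salt and 50.6 in IR29 control, a salt ratio of 1.72 in IR29.

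**Figure D2:**
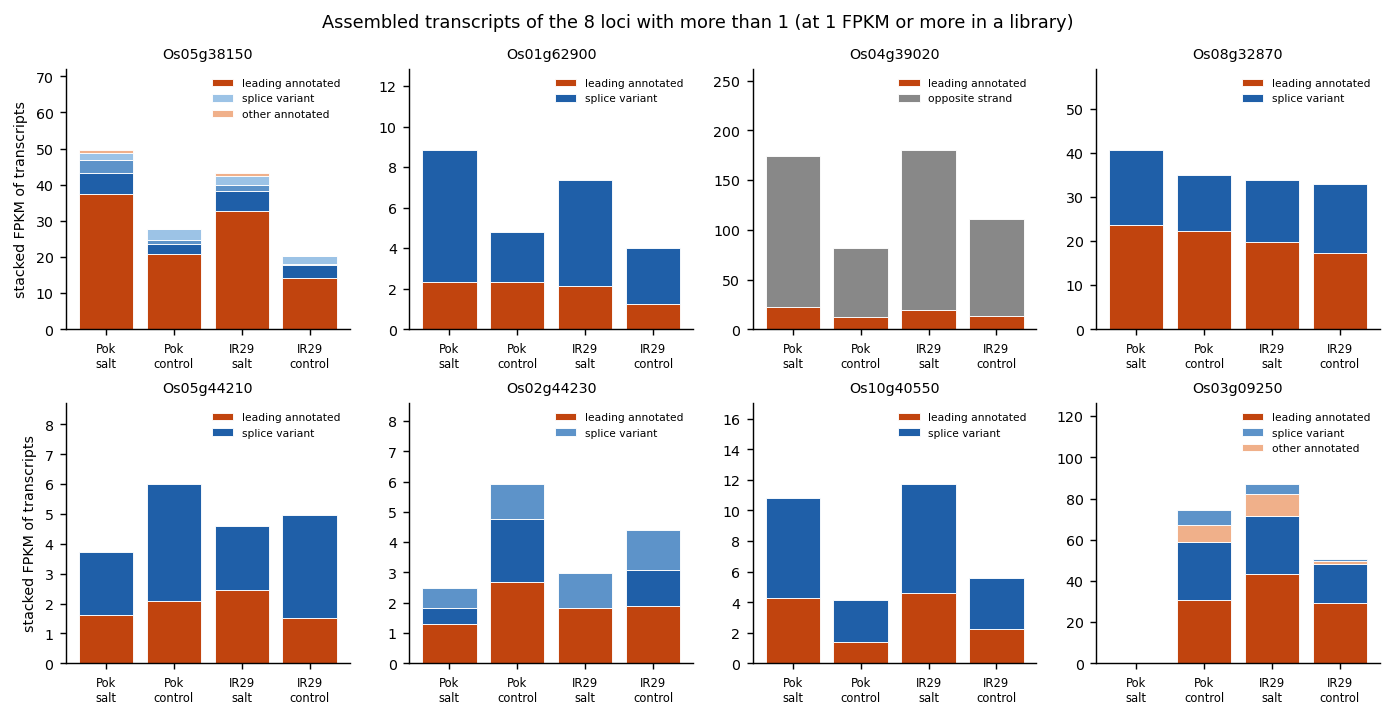
Assembled transcripts of the 8 loci with more than 1, stacked as FPKM (linear axes that differ between panels) in Pok salt, Pok control, IR29 salt and IR29 control; transcripts below 1 FPKM in every library are left out. The opposite-strand transcript (grey) made up most of the stack at Os04g39020, the leading transcript held 70.4% to 76.0% of Os05g38150, and splice variants held most of Os01g62900 and Os10g40550.

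Splice variants mattered to the picture of these loci. Of the 29 assembled transcripts, 14 matched the annotation, 13 were splice variants, 1 was the class of possible pre-mRNA and 1 lay on the opposite strand. In all, 24 reached 1 FPKM in a library and 14 reached 5 FPKM. Of the splice variants considered, 3 of 4 rose after salt in Pok (at Os05g38150, Os01g62900 and Os10g40550) and 2 of 6 in IR29 (at Os10g40550 and Os03g09250), and none fell. Every variant that rose reached 5 FPKM only in the salt library of its pair, with controls of 2.44 to 2.83 FPKM in Pok. The IR29 controls were 3.33 FPKM at Os10g40550 and 1.07 at Os03g09250. A filter passed only in the salt library favours a call of risen, so these counts are no support for a salt response. Among all splice variants considered, 13.7% rose and 10.5% fell in Pok, and 24% rose and 8.77% fell in IR29. With so few variants the shares of the loci are given as counts only.

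Between the genotypes no leading transcript passed the size limits in either condition. Weaker transcripts of Os03g09250 did between the controls: its second annotated transcript was 5.94-fold higher in Pok (8.00 FPKM in Pok control, 1.35 in IR29 control) and a splice variant 6.70-fold (7.18 in Pok control, 1.07 in IR29 control). That variant was 1 of the 3 splice variants considered there, beside 17.9% higher and 7.12% lower among all splice variants considered. Each of these weaker transcripts of Os03g09250 reached 5 FPKM only in Pok control of that pair. With IR29 controls of 1.35 and 1.07 FPKM they could only be called higher. Of all annotated transcripts considered, 9.94% were higher and 5.75% lower in Pok control than in IR29 control, and 9.16% were higher and 5.6% lower in Pok salt than in IR29 salt. The median log2 ratio of Pok over IR29 was 0.30 over the 9 loci between the controls (range −0.44 to 0.57) and 0.08 over the 8 loci not at 0 between the salt libraries (range −0.39 to 0.25). Over all considered transcripts, a set held to 5 FPKM unlike these loci, the medians were 0.32 and 0.10. Between the controls the loci considered had log2 ratios of 0.52 (Os05g38150), 0.18 (Os01g71990), −0.13 (Os04g39020), 0.36 (Os08g32870) and 0.07 (Os03g09250). Between the salt libraries they had 0.18, 0.09, 0.18 and 0.25 in the same order, without Os03g09250. In the controls the ratio was highest for Os01g62900 (1.87) and lowest for Os10g40550 (0.622), and the fragment of Os10g40360 was lower still (0.526).

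The order of the loci by level was similar in the 4 libraries. Os03g09250 led in Pok control, IR29 salt and IR29 control, and Os05g38150 led in Pok salt. Os08g32870, Os05g38150, Os04g39020 and Os01g71990 filled the remaining high places in each library, with 12.2 FPKM or more. Below them came the fragment of Os10g40360, and the leading transcripts of the remaining 4 loci were under 5 FPKM throughout. Each of these 4 loci passed 5 FPKM in a library when all its transcripts were summed. Because there is 1 library per condition, no spread is known that would say which neighbours in this order differ.

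Leaving out Os03g09250, both salt libraries lay above both controls at 4 of 9 loci (Os05g38150, Os10g40360, Os04g39020 and Os10g40550) and below both controls at 1 (Os02g44230). Among 12032 annotated transcripts that reached 5 FPKM in a library and were at 0 in none, 37% lay above and 12% below in the same way. Only 4 of the 9 loci met the same 5 FPKM filter with an annotated transcript, and 2 of them (Os05g38150 and Os04g39020) lay above, so the counts are too small to set against these shares. The log2 ratio of salt over control in Pok minus that in IR29 ran from −0.70 at Os05g44210 to 0.45 at the fragment of Os10g40360. Over all 12032 transcripts this difference had a median of −0.17, quartiles of −0.50 and 0.23, and 5th and 95th percentiles of −1.12 and 1.22. On their leading transcripts all 9 loci lay between these percentiles. For the loci under 5 FPKM throughout (Os01g62900, Os05g44210, Os02g44230 and Os10g40550) this says little, since FPKM plus 1 shrinks their ratios. Os10g40360 is a fragment and also not of a like set. Os02g44230 had a difference of −1.30 when its annotated transcripts were summed, at 3.40 FPKM or less in every library, and −1.05 over all its transcripts. The annotated sum differs from the leading transcript only by 2 transcripts at 0.762 and 0.798 FPKM in IR29 salt, listed at 0 elsewhere. The difference of −1.30 lay below the 5th percentile and that of −1.05 above it. The percentiles are of single transcripts that reached 5 FPKM in a library, so they are not a like set for either sum. On leading transcripts, Os05g44210 (−0.70), Os02g44230 (−0.67), Os10g40360 (0.45), Os10g40550 (0.36) and Os04g39020 (0.31) lay outside the quartiles. Of these, Os05g44210, Os02g44230 and Os10g40550 were under 5 FPKM in every library.

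**Figure D3:**
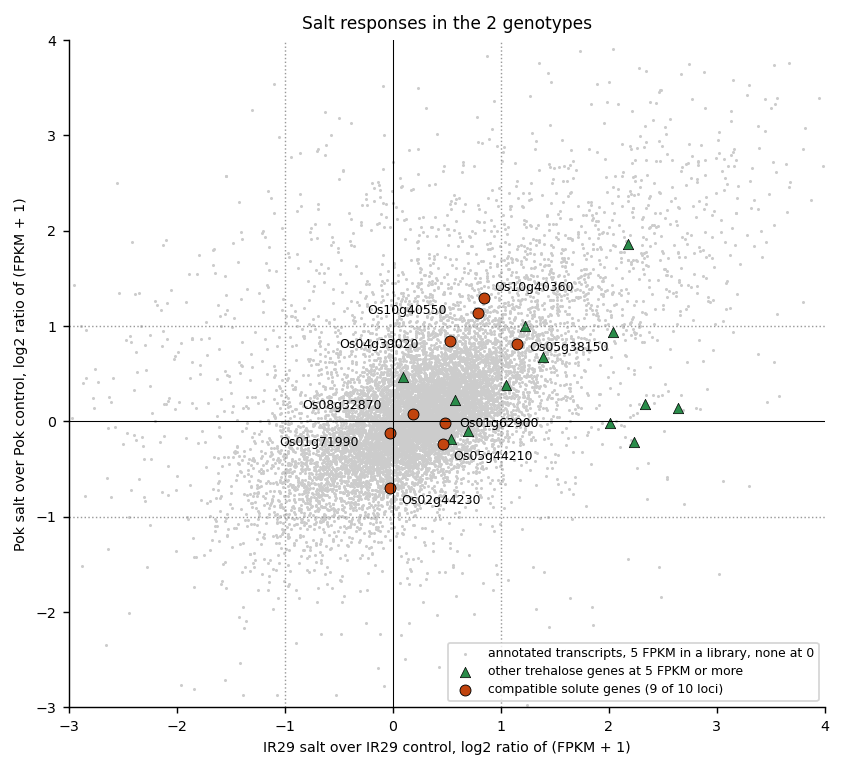
Log2 ratio of (FPKM + 1), salt over control, in Pok (vertical axis) against IR29 (horizontal axis), for the leading transcripts of 9 loci (circles), 13 other trehalose genes at 5 FPKM or more in a library (triangles) and 12032 annotated transcripts (grey, 62 of them beyond the axes); dotted lines mark log2 ratios of −1 and 1. The 9 loci lie between −0.03 and 1.15 in IR29 and between −0.69 and 1.29 in Pok, whereas 3 trehalose phosphatase genes and 1 synthase gene lie above 2 in IR29 and near 0 in Pok. The synthase gene Os08g34580 (2.04 in IR29, 0.94 in Pok) and the trehalase Os10g37660 (2.17 and 1.87) also lie above 2 in IR29, but not near 0 in Pok.

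The wider pathways were then read from the annotation text, leaving out the 10 loci. These word lists were also chosen with earlier results of these data known. No other gene matched the words for proline metabolism. Of 18 other trehalose genes, 3 of the 11 considered rose after salt in Pok, beside 15.1% of all transcripts considered. In IR29 9 of the 13 trehalose genes considered rose, beside 18.9% of all. None of the trehalose genes fell in either genotype (4.81% of all in Pok and 5.67% in IR29). Their median log2 ratio was 0.38 in Pok and 1.39 in IR29, against 0.10 and 0.31 over all considered transcripts. After the FPKM were scaled to a median ratio of 1, 1 gene rose in Pok and 8 in IR29, beside 13.9% and 13.2% of all transcripts considered on that scale. By kind, 3 of the 3 trehalose phosphatase genes considered and 4 of the 5 trehalose-6-phosphate synthase genes considered rose in IR29, with 1 of 4 trehalose synthase genes and the only trehalase. In Pok those that rose were 2 of the 5 trehalose-6-phosphate synthase genes and the trehalase, with 0 of the 4 trehalose synthase genes and 0 of the 1 phosphatase gene considered. The 3 phosphatase genes, of 7 in the list, reached 5 FPKM in IR29 only after salt. With IR29 controls of 0.881 to 1.24 FPKM, a gene that is considered must be called, so 3 of 3 was fixed by the filter. The same held in IR29 for the trehalose-6-phosphate synthase genes Os08g31980 (control 1.99) and Os08g34580 (1.44) and the trehalase (0.890). In Pok it held for Os08g34580 (2.40) and the trehalase (0.648). The filter was the same for all transcripts.

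The phosphatase gene Os05g03810, which removes the phosphate of trehalose 6-phosphate, had 6.13 FPKM in Pok salt, 5.44 in Pok control, 13.0 in IR29 salt and 1.24 in IR29 control. It rose 10.5-fold in IR29 (log2 2.64) and had a ratio of 1.13 in Pok (log2 0.15). The phosphatase gene Os12g32130 had 3.60 FPKM in Pok salt, 4.34 in Pok control, 8.16 in IR29 salt and 0.947 in IR29 control, and rose 8.62-fold in IR29 (log2 2.23). The low value in both genes was the IR29 control and the high value the IR29 salt library, with both Pok libraries in between. The synthase gene Os08g31980 had the same order, with 7.27 FPKM in Pok salt, 6.29 in Pok control, 14.1 in IR29 salt and 1.99 in IR29 control, and rose 7.10-fold in IR29 (log2 2.34) with a ratio of 1.16 in Pok. Between the controls 3 of the 9 trehalose genes considered were higher in Pok (9.94% of all transcripts), and after salt 3 of the 13 considered were lower in Pok (5.6% of all). With median centring these counts were 1 of 8 (4.11% of all on that scale) and 4 of 13 (7.04% of all). Between the controls Os05g03810 and Os08g31980 reached 5 FPKM in Pok control only. With IR29 controls of 1.24 and 1.99 FPKM they could only be called higher there. The trehalase Os10g37660, which splits trehalose into glucose and was picked after its values were seen, rose in both genotypes, with 5.0 FPKM in Pok salt, 0.648 in Pok control, 7.52 in IR29 salt and 0.890 in IR29 control.

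**Figure D4:**
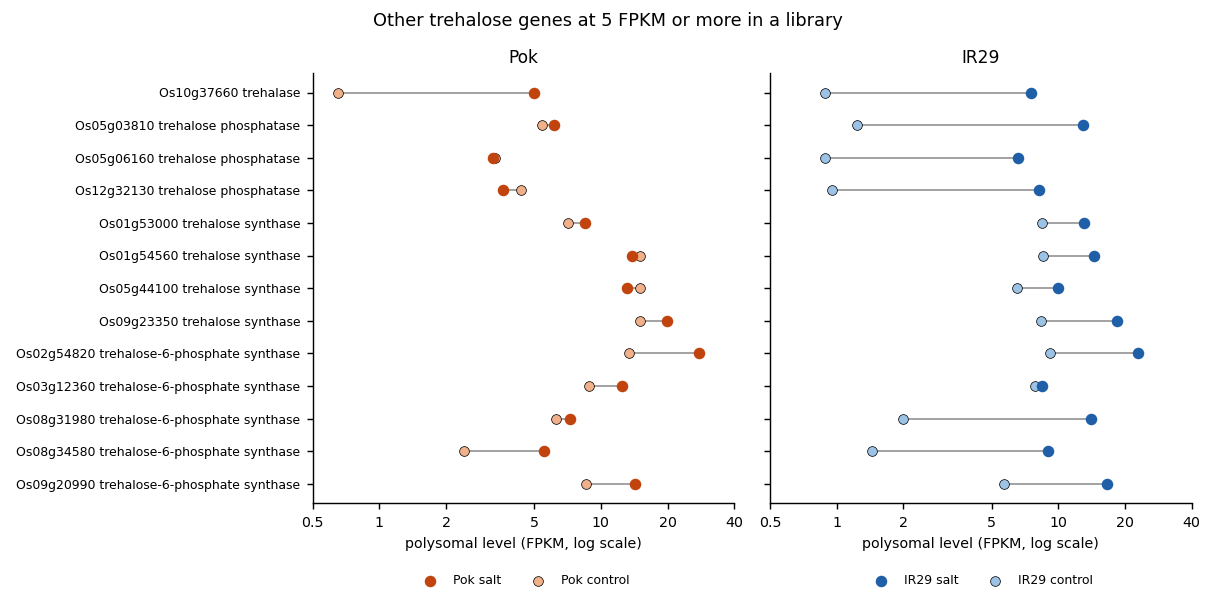
Polysomal levels (FPKM, log axis) of the 13 other trehalose genes at 5 FPKM or more in a library, in Pok (left) and IR29 (right), with salt as dark points, control as light points and a line joining them, 1 library each. The 3 phosphatase genes stood at 6.58 to 13.0 FPKM in IR29 salt and at 0.881 to 1.24 FPKM in IR29 control, and their salt to control ratios in Pok were 0.830 to 1.13.

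Of 17 other genes annotated as aldehyde dehydrogenases or choline monooxygenase, 3 of the 13 considered rose after salt in Pok, and 2 of the 13 considered rose in IR29, and none fell. The shares over all transcripts were 15.1% in Pok and 18.9% in IR29, and over the settings tried 0 to 4 of these genes rose in Pok and 1 to 3 in IR29. Their median log2 ratio was 0.30 in Pok and 0.27 in IR29. Os01g40870 rose 2.42-fold in Pok, with 21.1 FPKM in Pok salt, 8.71 in Pok control, 12.3 in IR29 salt and 11.0 in IR29 control, and stood out by its Pok salt library alone. Os09g26880 rose in both genotypes, with 20.1 FPKM in Pok salt, 9.97 in Pok control, 18.2 in IR29 salt and 6.68 in IR29 control. Its Pok ratio of 2.01 was at the limit and no longer passed it with median centring (log2 0.88) or upper-quartile scaling (log2 0.73). Os02g49720 rose 6.42-fold in IR29, where its control was the low value, with 4.27 FPKM in Pok salt, 3.67 in Pok control, 6.58 in IR29 salt and 1.02 in IR29 control. The choline monooxygenase gene Os06g48510, the step before betaine aldehyde dehydrogenase, was picked after its values were seen and had 3.36 FPKM in Pok salt, 0.676 in Pok control, 4.27 in IR29 salt and 0.889 in IR29 control. Both salt values exceeded both controls there, but no library reached 5 FPKM.

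The words for inositol and raffinose family metabolism matched 8 other genes, 7 inositol monophosphatases and 1 inositol-3-phosphate synthase (Os10g22450), and no raffinose family gene. Every gene considered was an inositol-1-monophosphatase and stood below its control after salt. Of these, 0 of 3 passed the limits in Pok, and in IR29 1 of 4 fell and none rose. Among all transcripts considered, 15.1% rose and 4.81% fell in Pok, and 18.9% rose and 5.67% fell in IR29. With so few considered, these counts do not set the inositol genes apart. The inositol-1-monophosphatase gene Os07g37230, which takes the phosphate off inositol phosphate, had 1.26 FPKM in Pok salt, 4.81 in Pok control, 0.924 in IR29 salt and 6.72 in IR29 control. It fell in IR29, with a ratio of 0.137, and had a ratio of 0.262 in Pok, where neither library reached 5 FPKM. The fall in IR29 was lost when all assembled transcripts were summed (log2 −0.88, against −2.01) and with a minimum of 10 FPKM. The median log2 ratio of those considered was −0.40 in Pok and −0.30 in IR29, the only 1 of the 3 lists with a median under 0.

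For the 4 loci whose leading transcript spanned at least 2-fold over the libraries with none at 0, the annotated transcripts with the most similar profile were sought among 11413 or 11414 others, by the Euclidean distance of centred log2(FPKM + 1) over the 4 libraries. The closest to Os05g38150 was the cupin domain gene Os02g32980 (distance 0.0717), with 24.3 FPKM in Pok salt, 12.9 in Pok control, 21.7 in IR29 salt and 9.44 in IR29 control. It was followed by the protein kinase gene Os08g17320 (0.0808). For the fragment of Os10g40360 the closest were the LIM domain gene Os03g42820 (0.102) and the vesicle-associated membrane protein gene Os12g44250 (0.117). Os02g44230 was nearest to the CS domain gene Os03g45270 (0.0353) and the transporter gene Os06g08860 (0.0390), and Os10g40550 to Os02g48640 (0.0338) and the phosphatidylinositol transfer protein gene Os03g17800 (0.0486). With only 4 libraries many profiles lie close together, and the distances are a description.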

How the data were processed

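The 4 polysomal libraries (Pok salt, Pok control, IR29 salt, IR29 control) were used. As the methods state, the authors filtered single-end reads and mapped them with TopHat (rice MSU v6.1). Cufflinks and Cuffmerge built the transcripts, Cuffcompare classed them against the annotation and Cuffdiff compared libraries, and their versions are not given in the sources used here. The deposited values are FPKM per assembled transcript, normalized by the authors for transcript length and mapped reads. The table holds neither counts nor transcript lengths, and the study's read totals were not used here, so the counting error of a value is not given. Positions are those of assembled loci in MSU v6.1, whose starts were read as 0-based and raised by 1. An assembled locus can hold several genes.

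Scripts in Python 3.11.15 with pandas 2.3.3 and numpy 2.4.6 (plots with matplotlib 3.10.9) computed ratios of FPKM and log2 ratios of FPKM plus 1. A transcript was considered with 5 FPKM or more in one library of the pair and neither value at 0, and called at a 2-fold ratio. There were no replicates, so no test was run, and the authors' FDR limit was not applied. The calling steps were tested on simulated data. Genes were named by rule: all 10 loci, up to 3 other genes per pathway list with the largest log2 ratio among those called after salt, and 2 transcripts of similar profile per locus. The loci and lists were chosen with earlier results of these data known. Loci are named by their identifiers and annotation text. Alternative settings were 1 or 10 FPKM as the minimum, 4-fold as the limit, the limit on log2 of FPKM plus 1, pseudocounts of 0.1 and 0.01, median centring, upper-quartile scaling and sums over transcripts, and leaving out opposite-strand transcripts, counting the fragment of Os10g40360 and keeping values of 0 were added after the data were seen.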

Additional observations from a re-analysis of the deposited data

Results flagged for a closer look

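Among the 10 loci and the pathway genes named by rule, the ratio of salt over control pointed in opposite directions in the genotypes at 3, and with 1 library per condition the difference was not tested. The leading transcript of the amino acid kinase Os01g62900 had a log2 ratio of −0.02 in Pok and 0.48 in IR29, a difference of −0.50, and the Pok ratio changed sign when all transcripts of the locus were summed (1.85-fold in each genotype). For the trehalose-6-phosphate synthase Os05g44210 the log2 ratios were −0.23 in Pok and 0.46 in IR29, a difference of −0.70, with all 4 values between 1.51 and 2.46 FPKM, and the IR29 ratio was 0.885 on the sum. The trehalose phosphatase gene Os12g32130 had log2 ratios of −0.21 in Pok and 2.23 in IR29, a difference of −2.45, where IR29 control was the low value (0.947 FPKM).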

How the results depend on the processing

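No paired analysis was possible because each group compared held 1 library, so no 2 groups shared more than 1 replicate number. A fit of salt over both genotypes with genotype as a block was not run. The count of loci that rose in IR29 was 1 (Os05g38150). It was 0 with a 4-fold limit, 0 with median centring and 0 with upper-quartile scaling, and it was 2, with Os10g40550 added, with a minimum of 1 FPKM, with all assembled transcripts summed and with the sum without opposite-strand transcripts. Among all considered in IR29, 18.9% rose at the main setting, 6.06% with a 4-fold limit, 13.2% with median centring and 12.2% with upper-quartile scaling. The share was 20.5% with a minimum of 1 FPKM, and 18.1% and 17.9% on the sums. The count that rose in Pok was 0. It was 1 with a minimum of 1 FPKM (Os10g40550), 3 with all transcripts summed (Os10g40360, Os04g39020 and Os10g40550), 2 without opposite-strand transcripts and 1 with the fragment of Os10g40360 counted. Among all considered in Pok, 15.1% rose at the main setting, 18.1% with a minimum of 1 FPKM, and 13.5% and 13.3% on the sums. The count that fell in Pok was 0. It was 1 (Os02g44230) with a minimum of 1 FPKM and with either sum, and 1 (Os03g09250) with values of 0 kept, which also made 1 locus lower in Pok salt than in IR29 salt, against 0. Among all considered, 4.81% fell in Pok at the main setting and 6.77% with a minimum of 1 FPKM. The shares were 3.94% and 3.86% on the sums and 5.61% with values of 0 kept. With values of 0 kept, 6.76% were lower in Pok salt than in IR29 salt. Of 88 such counts under alternatives, 73 did not move by over 1.5 times, and the cause of the others was not tested. Every main count except the 1 that rose in IR29 was 0, and a 0 that stayed 0 was taken as not moved. The tally therefore says little about stability.

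Of 47 log2 values of single loci, which were ratios or differences of salt response between the genotypes, 13 changed sign under an alternative. Most of these log2 values were near 0, such as those of Os01g71990 and Os08g32870. Of the other trehalose genes, 5 to 9 rose in IR29 and 0 to 3 in Pok over the settings, 1 to 5 were higher in Pok control than in IR29 control, and 0 to 4 were lower in Pok salt than in IR29 salt. Over these settings the shares of all considered were 6.06% to 20.5%, 5.82% to 18.1%, 1.65% to 12.1% and 1.65% to 8.61% in the same order. The 1 inositol gene that fell in IR29 was lost with a minimum of 10 FPKM and with all transcripts summed. The share of calls that were higher was 75.9% in Pok and 76.9% in IR29 for salt over control, 63.4% for Pok over IR29 control and 62.0% for Pok over IR29 salt. In the same order it was 71.2%, 58.3%, 31.6% and 49.2% with median centring, and 56.8%, 53.7%, 46.5% and 53.6% with upper-quartile scaling. Without counts or replicates, the precision of levels under 5 FPKM is unknown.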
